A study of Mus musculus with 4 samples.

Results

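The Ikaros family genes Ikzf1, Ikzf2, Ikzf3, Ikzf4 and Ikzf5 were examined as places of binding by 2 of their own products, Eos and Helios, in mouse splenic regulatory T cells (Treg cells). Peaks were taken where the summit lay inside 1 of these 5 genes or within 100 kb of it on GRCm38 (mm10). This gave 8 of 1106 peaks of the wild-type anti-Eos list and 3 of 469 peaks of the wild-type anti-Helios list, 11 of 1575 in all. The cells were isolated from spleens with a CD4+CD25+ bead kit and profiled by ChIP-seq, the sequencing of DNA fragments pulled down together with a chromatin protein by an antibody. The study had 4 groups of 1 library, wild-type (WT) and Eos-flox x Foxp3-Cre cells each precipitated with anti-Eos or anti-Helios, and the 2 libraries of Eos-flox x Foxp3-Cre cells were not analysed here. In that cross the recombinase is driven from Foxp3, so Ikzf4 is removed in cells that express or have expressed Foxp3. The sources used here state no age, sex, strain or number of mice for a library.

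Ikaros family proteins are zinc finger transcription factors that bind DNA through N-terminal fingers, most of them around a GGGAA core. They pair with each other through C-terminal fingers. They are known to recruit the NuRD complex and other corepressors, and also to sit at active genes. Ikzf1 (Ikaros) is needed for lymphocyte development, and Ikzf3 (Aiolos) acts mainly in later B and T cells. Ikzf2 (Helios) and Ikzf4 (Eos) are expressed in Treg cells, where Helios helps to keep the Treg state stable and Eos is a partner of Foxp3 in gene silencing. Ikzf5 (Pegasus) is the most divergent member. Most members share this DNA core, and members pair with each other. Peaks of Eos at Ikzf4 therefore bear on autoregulation, and peaks of either factor at the other genes on cross-regulation. A peak by itself shows neither.

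Sequence was at hand (RefSeq, GRCm38.p6) for the 250 bases before the start of Ikzf1 (at 2 starts), of Ikzf5 and of Rps26, a ribosomal protein gene next to Ikzf4. It was also at hand for Dgka, Pym1 and Mien1, which lie at other peaks described below. The promoter of Rps26 is shown because it is the only one of these that a peak reached. It lies on the minus strand at chr10:128626507-128626756, and the 66 bases in capitals are those inside the anti-Eos peak. The anti-Helios peak covered 5 of them.

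Rps26: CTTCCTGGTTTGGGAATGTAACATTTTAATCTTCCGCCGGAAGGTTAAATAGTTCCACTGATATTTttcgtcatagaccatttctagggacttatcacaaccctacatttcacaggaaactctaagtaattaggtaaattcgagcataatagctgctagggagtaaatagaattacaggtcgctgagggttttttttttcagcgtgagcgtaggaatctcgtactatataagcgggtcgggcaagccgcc

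The capitals hold 1 TGGGAA, at bases 11 to 16, and so also 1 GGGAA. For comparison, promoters of the 2 family genes with sequence are given with each GGGAA, or TTCCC where the core is on the other strand, in capitals. They are Ikzf5 (minus strand, chr7:131410479-131410728) and the later start of Ikzf1 (plus strand, chr11:11689927-11690176). No peak lay within them.

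Ikzf5: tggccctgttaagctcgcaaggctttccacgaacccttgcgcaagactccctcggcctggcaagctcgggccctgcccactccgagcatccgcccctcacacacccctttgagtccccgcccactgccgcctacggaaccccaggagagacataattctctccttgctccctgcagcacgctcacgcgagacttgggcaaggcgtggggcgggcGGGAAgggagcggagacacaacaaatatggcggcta

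Ikzf1: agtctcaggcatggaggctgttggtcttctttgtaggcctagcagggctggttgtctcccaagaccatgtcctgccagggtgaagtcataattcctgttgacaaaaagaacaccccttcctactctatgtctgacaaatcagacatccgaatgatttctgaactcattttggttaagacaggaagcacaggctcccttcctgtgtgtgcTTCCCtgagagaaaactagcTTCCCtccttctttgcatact

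Over both strands GGGAA occurred once before Ikzf5, in 2 places before this start of Ikzf1, and 0 times before its earlier start (chr11:11685675-11685924). A start of Dgka (chr10:128744077-128744326) held TGGGAA in 2 places without a peak. Neither core lay before the Dgka start nearest the summits, nor before Pym1 and Mien1. Of all 32851 promoters searched over the same 250 bases, 56.2% held GGGAA and 21.6% TGGGAA, which contains it. Such matches are common and are no sign of a binding site.

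Each peak carries the authors' fold enrichment, the ratio of fragments at the summit to the local background in a control library. The median fold was 7.31 in the anti-Eos list and 7.66 in the anti-Helios list. No source used here says what the control of either list was. Fragment numbers were worked out from the deposited fold and p-value of each peak (median 14 in the anti-Eos and 18 in the anti-Helios list). There is 1 library per antibody and no replicate, so nothing below was tested, and the 95% intervals (exact Poisson) cover the counting of fragments only. Places under the authors' cut-off (lowest -log10 q of 2.08 and 2.24) are not listed, so a missing peak does not show that binding was absent. The gene table has no strand, exons or UTRs, and a gene is described by its lower and upper ends in coordinates.

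Anti-Eos had a summit inside 4 of the 5 genes, 1 each in Ikzf1, Ikzf2, Ikzf3 and Ikzf4, and anti-Helios inside 0 of 5. Anti-Eos summits lay inside 2.57% and anti-Helios summits inside 1.33% of all 21887 protein-coding genes, and at that share 0 of 5 is no result about the family. The anti-Eos list is also the longer one: its 469 peaks with the highest -log10 q, as many as the anti-Helios list holds, had a summit inside 2 of the 5 genes (Ikzf1 and Ikzf4). Counting summits within 100 kb as well, anti-Eos still reached 4 of 5 genes, against 16.9% of all protein-coding genes, and anti-Helios 2 of 5 (Ikzf3 and Ikzf4), against 9.31%. Family genes are long, from 21.9 to 156 kb against a median of 17.2 kb for protein-coding genes, and a long gene has more room for a summit. Among the 8140 protein-coding genes of that range of lengths, 3.85% held an anti-Eos and 1.98% an anti-Helios summit. The lower limit of that range is the length of Ikzf5, which held no summit. The 4 genes with an anti-Eos summit are longer, from 38.8 to 156 kb, and the share for genes that long was not worked out. Per Mb of family gene there were 10.4 anti-Eos summits, compared with 0.595 per Mb of all protein-coding genes.

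**Figure D1:**
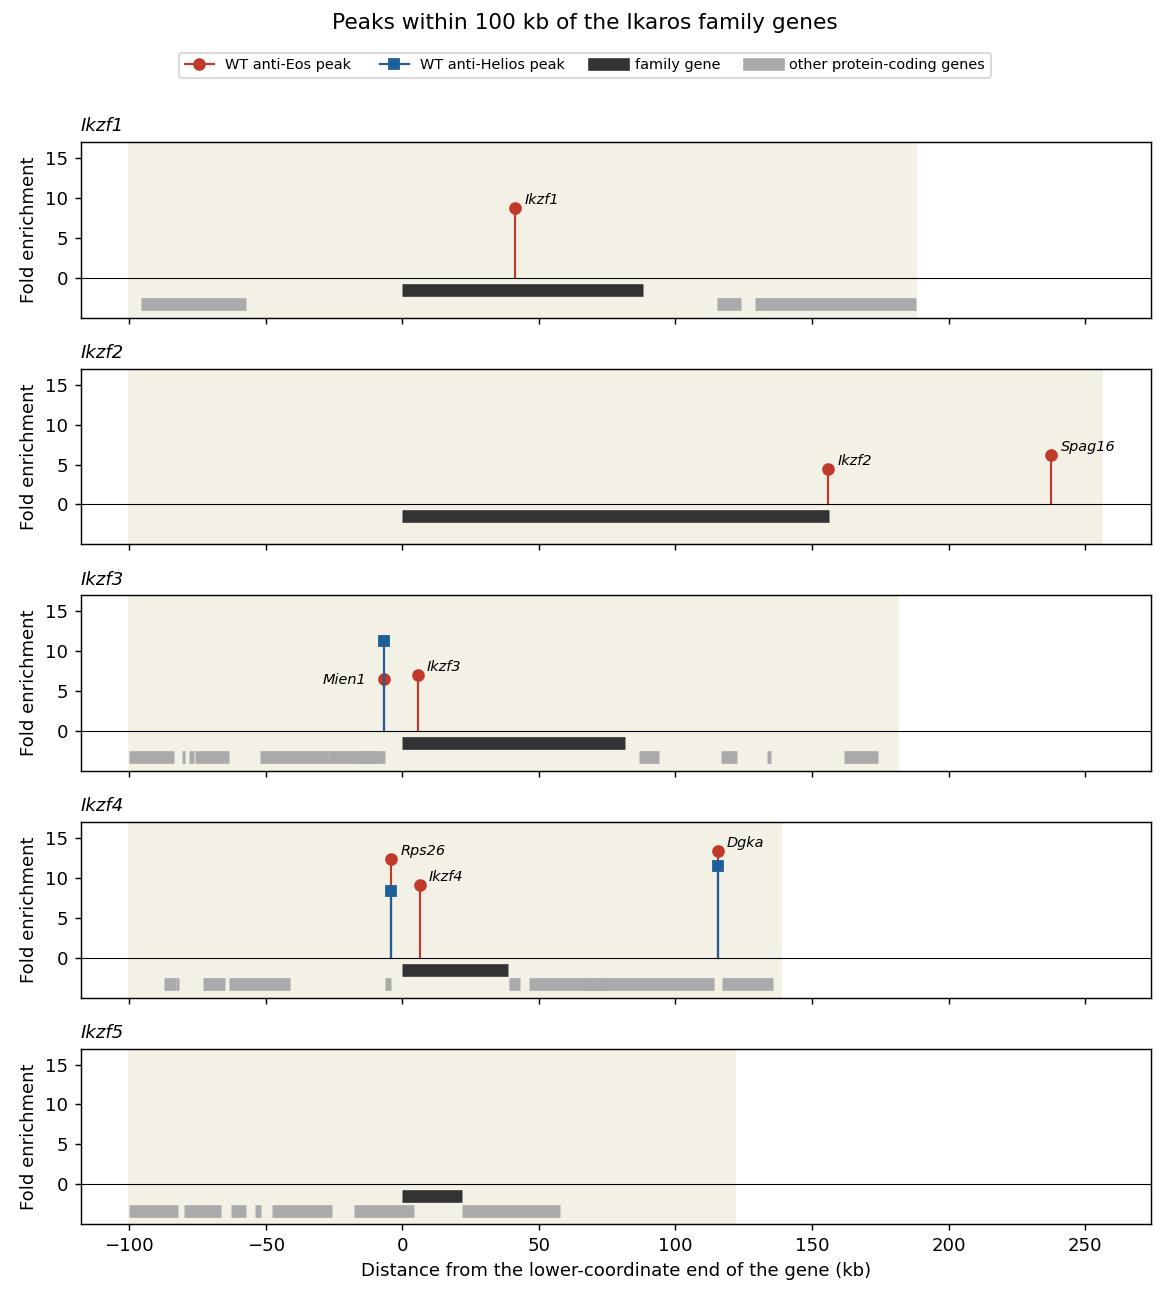
Fold enrichment (y axis) of every peak in the 100 kb windows (shaded), by distance in kb of its summit from the lower-coordinate end of the family gene (x axis); red circles are WT anti-Eos, blue squares WT anti-Helios, black bars the family gene and grey bars other protein-coding genes. Labels give the nearest protein-coding gene. The 4 summits inside family genes are all anti-Eos, the 3 blue squares all lie outside them, and Ikzf5 has none.

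At Ikzf4, the gene of Eos itself (chromosome 10, 128630839 to 128669671), 1 anti-Eos peak lay inside the gene, 6.34 kb from its lower end (128637012 to 128637261). Its fold was 9.09 (interval 5.51 to 14.3), from 17 fragments over a local background of 0.980. In the list of 1106 peaks 74.1% had a lower fold, so it was a peak of the upper part of the list but not of the top. No anti-Helios peak lay inside Ikzf4.

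On the lower side of Ikzf4, beyond its end, both antibodies marked the start of Rps26, which encodes a protein of the small ribosomal subunit. The anti-Eos summit was 323 bp outside Rps26 and 4.01 kb from Ikzf4, with a fold of 12.3 (8.02 to 18.3) from 23 fragments. The anti-Helios summit lay 9 bp away with a fold of 8.33 (5.00 to 13.2) from 16 fragments. Rps26 was thus the nearer gene, and the anti-Eos peak covers the promoter bases shown above in capitals.

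On the upper side, both antibodies gave a peak 76.7 kb from Ikzf4, between Dgka and Pym1. Dgka encodes a diacylglycerol kinase that dampens T cell receptor signalling, and Pym1 a factor that takes exon junction complexes apart. The anti-Eos fold was 13.4 (24 fragments) and the anti-Helios fold 11.4 (27 fragments), with summits 4 bp apart. The summits lay 1286 and 1290 bp from Dgka, 1509 and 1505 bp from Pym1, and 488 and 492 bp from the lncRNA gene Gm31504. The strongest peaks of the Ikzf4 window for both antibodies were therefore nearest to another gene, and the weakest of its 3 anti-Eos peaks was the one inside Ikzf4.

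Whether the floxed Ikzf4 locus could leave a false peak depends on the control. If knockout cells served as the control, a stretch of Ikzf4 deleted in it would give no control fragments and so lower the local background there. The sources used here name neither the control nor the deleted stretch, so this was not tested, but the values at the peak can be set out. The background at the Ikzf4 peak was not at its lowest value: it was 1.81 times the genome-wide background of 0.542, close to the median of all anti-Eos peaks (1.74 times), and it amounts to about 9.03 control fragments per kb. By comparison, 97 of the 1106 anti-Eos peaks (8.77%) stood at the genome-wide background. The peak inside Ikzf3, a locus that was not targeted, had the same background (0.980, 1.81 times genome-wide). The span of DNA over which the local background was taken is not stated either. A deleted stretch shorter than that span need not bring the background down to the genome-wide value, so these values do not test the question.

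The fragments of a peak come from the wild-type library and do not depend on the control. With 17 fragments, the Ikzf4 fold would be 11.7 at the genome-wide background, the lowest the formula allows. It would be 6.16 if the background rose by 0.943, the value taken for 1 control fragment at the summit. That value is a sum in the formula only, because how a further fragment would combine with the local background is not known. For the control fragments per kb given above, 1 fragment was taken as 0.108, so these scales differ. The p-value of the Ikzf4 peak would stay below the largest in the list (-log10 p of 6.03) up to a background of 4.39. That is 4.49 times the background used and 8.11 times the genome-wide one. Over all anti-Eos peaks the median of this margin was 3.09 times the background used.

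**Figure D2:**
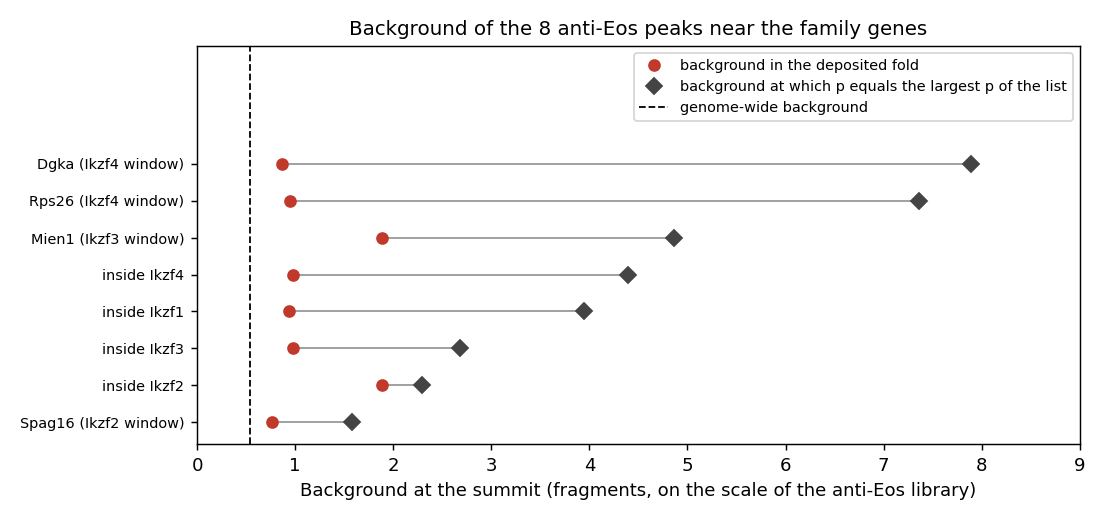
For the 8 anti-Eos peaks near the family genes, the local background behind the deposited fold (red circles) and the background at which the p-value would equal the largest in the list (grey diamonds), in fragments on the scale of the anti-Eos library; the dashed line is the genome-wide background. The Ikzf4 peak runs from 0.980 to 4.39, and the Ikzf2 peak has the shortest span, 1.89 to 2.29.

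At Ikzf2, the gene of Helios (chromosome 1, 69531207 to 69687351), anti-Eos gave a peak 168 bp inside the upper end (69687092 to 69687266). Its fold was 4.50 (2.49 to 7.61), from 12 fragments over a background of 1.89, and 3.07% of the list had a lower fold. It was the weakest of the 8 anti-Eos peaks by fold, and its margin the smallest: a background 1.21 times the one used would bring its p-value to the largest of the list. The second anti-Eos peak of the window (69768818 to 69769010) lay 81.5 kb beyond the upper end, with a fold of 6.24 from 10 fragments. Its nearest protein-coding gene was Spag16, a gene of the sperm axoneme, 57979 bp away, and its nearest annotated gene the lncRNA gene Gm29822 at 2226 bp. Ikzf2 had no other protein-coding gene within 100 kb. The nearest anti-Helios summit lay 1870 kb away, near Atic, so the Helios list held no peak at the gene of Helios.

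At Ikzf1, which encodes Ikaros (chromosome 11, 11684962 to 11772930), the only peak was an anti-Eos peak in the middle of the gene (11726268 to 11726413). Its summit lay 41.4 kb from the lower and 46.6 kb from the upper end, and 36.2 kb from the later RefSeq start shown above. The fold was 8.78 (5.24 to 13.9), from 16 fragments over a background of 0.936, and 71.2% of the list had a lower fold. This fold lies within the interval of the Ikzf4 peak. The nearest anti-Helios summit was 5847 kb away, inside Polm.

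At Ikzf3, which encodes Aiolos (chromosome 11, 98464610 to 98546031), an anti-Eos peak lay inside the gene, 5.76 kb from its lower end (98470254 to 98470400). Its fold was 7.07 (4.00 to 11.7), from 13 fragments, a value near the median of the list. Outside Ikzf3, 6.69 kb beyond its lower end, anti-Eos had another peak (98457815 to 98458061) with a fold of 6.58 (18 fragments over a background of 1.89). An anti-Helios peak overlapped it with a summit 18 bp away and a fold of 11.2 (7.31 to 16.6), from 23 fragments over a background of 0.923. This was the only shared place of the family where the anti-Eos fold was below its list's median, and the 2 folds rest on different backgrounds. The summits lay 313 and 295 bp inside the upper end of the Mien1 gene body as the gene table gives it. Mien1 lies beside Erbb2 and is linked to cell migration. The gene is on the minus strand, so the upper end of its body is the end where it begins. The Mien1 start with sequence at hand is another one, 18.9 kb below the summits and inside that gene body. The end of Grb7, which encodes a receptor adaptor protein, is 2544 and 2562 bp away.

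Ikzf5, which encodes Pegasus (chromosome 7, 131388649 to 131410518), had no summit of either antibody within 100 kb. The nearest anti-Eos summit was 1325 kb away, inside Fam53b, and the nearest anti-Helios summit 2996 kb away, inside Rgs10. Ikzf5 is the shortest of the 5 genes, with 7 other protein-coding genes in its window, and none of these held a summit either.

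Just inside the window limit were the peaks named for Spag16 (81.5 kb) and Dgka (76.7 kb). Just outside it were an anti-Helios peak inside Esyt1, 105.9 kb from Ikzf4 (fold 8.06, 15 fragments), an anti-Eos peak nearest to 4930512M02Rik, 111.1 kb from Ikzf1 (7.41, 11 fragments), and an anti-Eos peak beside Myl6b, 132.1 kb from Ikzf4 (5.20, 14 fragments).

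All 3 anti-Helios peaks of the windows overlapped an anti-Eos peak, and 3 of the 8 anti-Eos peaks overlapped an anti-Helios peak. Over the whole lists 65.9% of anti-Helios and 27.9% of anti-Eos peaks did so, and 3 peaks are too few to read against those shares. The 3 shared places, at Rps26, at Dgka and in Mien1, all had another gene nearest. The 5 anti-Eos peaks without a Helios partner included all 4 inside family genes. They had folds of 4.50 to 9.09 and 10 to 17 fragments. The 3 shared ones had folds of 6.58 to 13.4 and 18 to 24 fragments. The fragment ranges did not overlap, but the exact Poisson intervals did for Ikzf4 (17, 9.90 to 27.2) and Mien1 (18, 10.7 to 28.4). Whether shared anti-Eos peaks have more fragments over the whole list was not tested, so the split is not read as a trait of the family. Over all protein-coding genes with an anti-Eos summit inside, 366 of 563 (65.0%) had no anti-Helios summit inside, so the lack of Helios summits at the 4 family genes is the commoner state. Anti-Helios peaks without a high background were listed down to a fold of 4.05, but the cut-off also depends on the fragments and background at each place. The fold at which a Helios peak would be listed at these 4 places is not known, and the Helios signal there has no value here.

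**Figure D3:**
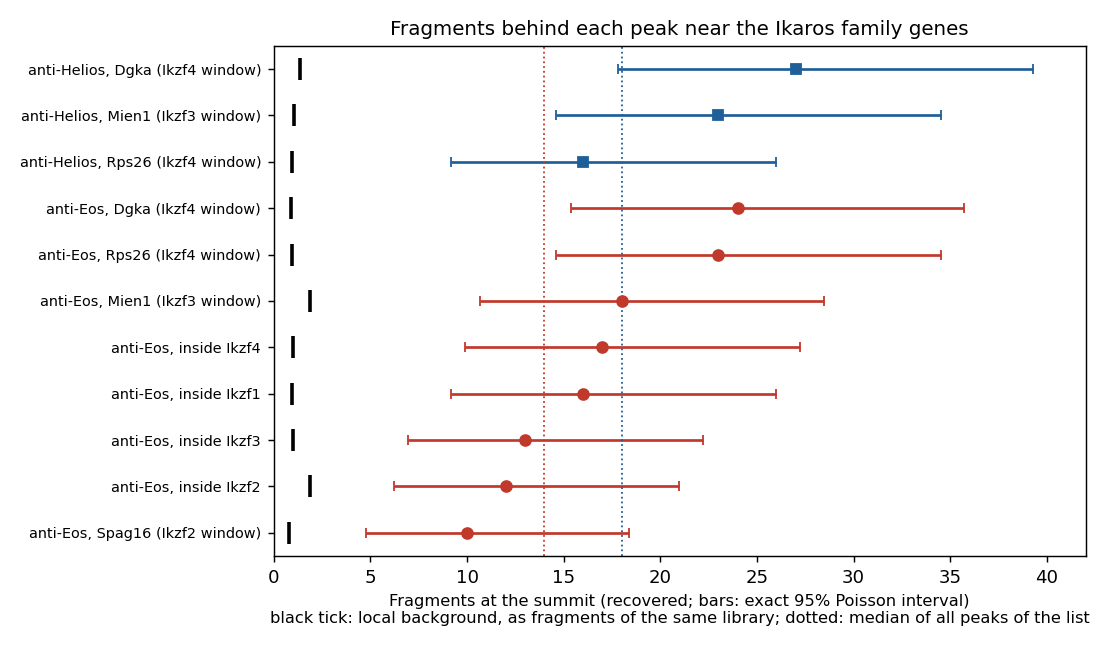
Fragments at the summit (x axis; points, with exact 95% Poisson intervals as bars) for each of the 11 peaks, named by antibody and nearest protein-coding gene; black ticks mark the local background and dotted lines the median of all peaks of each list (14 and 18). Anti-Eos peaks inside family genes have 12 to 17 fragments, and the intervals of all 8 anti-Eos peaks overlap.

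**Figure D4:**
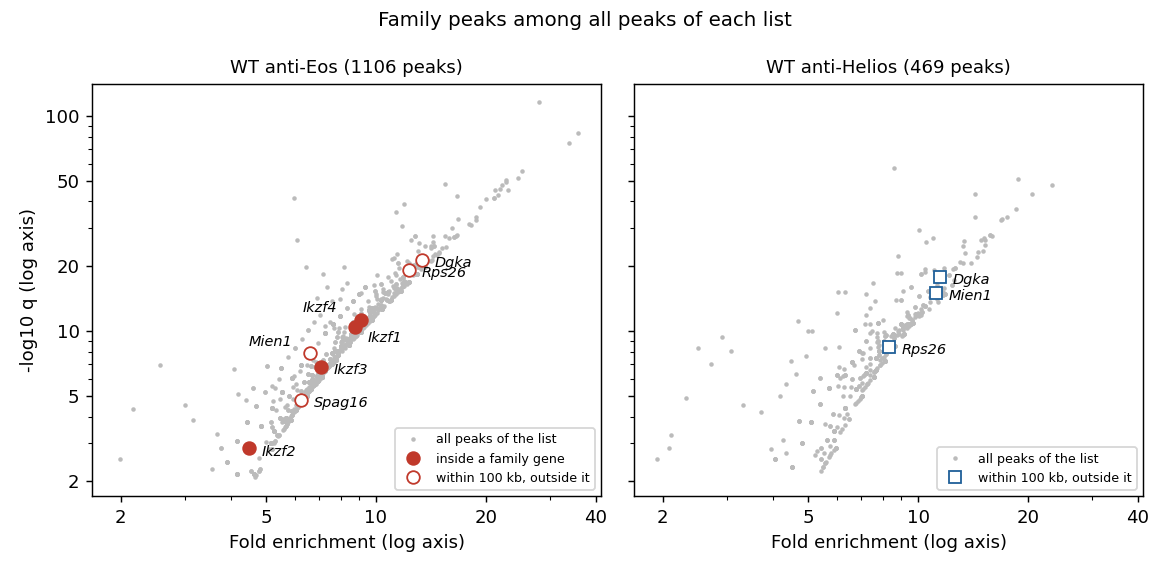
Fold enrichment (x axis, log scale) against -log10 q (y axis, log scale) for all peaks of the anti-Eos (left) and anti-Helios (right) lists in grey, with the family peaks in colour, filled where the summit is inside a family gene. The filled points run from a -log10 q of 2.84 (Ikzf2) to 11.3 (Ikzf4), below Rps26 (19.2) and Dgka (21.3).

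Other genes tied to the family were looked up in the same way. Of 20 genes for partners of Ikaros proteins (Foxp3, subunits of NuRD, SIN3 and CtBP corepressors, Smarca4, and Crbn, the receptor through which thalidomide-type drugs degrade human Ikaros and Aiolos), 2 held an anti-Eos summit: Sin3a, which encodes a scaffold of histone deacetylase complexes (fold 9.81, 1.85 kb from an end), and Chd3, which encodes a NuRD remodelling ATPase (9.78, 2.91 kb from an end). None of the 20 held an anti-Helios summit, against 1.33% of all protein-coding genes. Within 100 kb, 11 of the 20 had an anti-Eos and 4 an anti-Helios summit, against 16.9% and 9.31% of all protein-coding genes, 9 and 4 of them only outside the gene. Of 17 genes of other C2H2 zinc finger factors of lymphocytes, 3 held an anti-Eos summit: Klf2, a regulator of T cell trafficking (4.16, 133 bp from an end), Bcl6, which directs follicular T cells (7.38), and Bcl11b, a T lineage factor (4.16). The peaks at Klf2 and Bcl11b rested on 11 fragments each and a -log10 q of 2.16, near the lowest of the list, and only that at Bcl6 (6.97) was above 5. Of these 17, Bcl11b alone held an anti-Helios summit (8.10), 17.8 kb from an end and overlapping the anti-Eos peak, against 1.33% of all genes. Within 100 kb, 7 of the 17 had an anti-Eos and 4 an anti-Helios summit, beside the same 16.9% and 9.31%, 4 and 3 of them only outside the gene. Beside 4 of 5 family genes, this makes 2 of 20 and 3 of 17 with an anti-Eos summit inside, over the same background of 2.57%. The median length was 31.4 kb for the partner genes and 19.95 kb for the C2H2 genes, against 81.4 kb for the family. Of 6 marker genes of Treg cells, 3 held an anti-Eos and 0 an anti-Helios summit, against 2.57% and 1.33% of all protein-coding genes. They were Ikzf2 and Ikzf4, family genes already counted above, and Il2ra, which encodes the CD25 used in the isolation (7.27, 20 fragments). Of 9 marker genes of B, myeloid, CD8 and NK cells, 0 held a summit of either antibody, beside the same shares. These 9 genes had a median length of 7.47 kb, against 27.2 kb for the Treg markers.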

How the data were processed

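ChIP-seq peak lists of 2 wild-type libraries were used, with 1 library per group. Splenic cells were fixed for 10 min in 1% formaldehyde and precipitated with 6 µg of antibody, per the labels' protocols. The submitters' processing notes name cutadapt 4.4, BWA 0.7.1, Picard, SAMtools 1.17, deepTools 3.5.1 and, as builds, mm10 and GRCm38.p6. No source used here names the peak caller or the control. The authors called peaks per library. Their deposited columns hold a fold (a ratio to local background), a -log10 p-value and -log10 q-value, a score (the whole part of 10 times -log10 q in all 1106 and 469 peaks) and the summit offset.

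Fragments and background were solved from fold, as scaled fragments plus 1 over background plus 1, together with p, taken as the Poisson probability of more fragments. Both deposited values were met for 100% of peaks within a relative tolerance of 0.0001, with fragments scaled by 1 (anti-Eos) and 0.895 (anti-Helios). The solver was tested on simulated data. That the authors used this formula is an inference from the values. The fragments per kb of control rest on a step fitted to the backgrounds, which 54.6% of the 491 anti-Eos values used met.

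Distances are from summits to gene bodies of RefSeq protein-coding genes (GRCm38.p6), and overlap means at least 1 bp. Lists were 20 partner genes and 18 C2H2 genes, of which Zfp683 is not protein-coding in the table. Every peak in the windows is named, and every gene of these 2 lists with a summit inside. Peaks do not measure expression, so marker genes were only looked up for summits (6 of Treg cells, 9 of other cells). Members and lists were chosen with earlier results of these data known. Python 3.11.15, numpy 2.4.6, pandas 2.3.3 and scipy 1.17.1 were used.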

Additional observations from a re-analysis of the deposited data

How the results depend on the processing

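Of 41 alternatives to the counts, densities and the Ikzf4 fold above, 33 stayed within 1.5 times the reported count or density, or within the interval of the fold, and 8 moved. Some of the 33 could not move, because filtering an anti-Helios count of 0 can only return 0. A fall from 3 to 2 anti-Helios summits, with windows of 10 and 50 kb, also counted as within 1.5 times. With windows of 500 kb, 13 anti-Eos and 5 anti-Helios summits lay near the family, and the densities fell from 5.77 to 2.41 and from 2.16 to 0.928 summits per Mb. With windows of 10 kb the densities were 12.3 and 4.11 per Mb. The density over all annotated chromosomes was 0.409 and 0.174 per Mb. When the anti-Eos list was cut to its 469 highest -log10 q, the length of the anti-Helios list, 4 anti-Eos summits were left (inside Ikzf1 and Ikzf4, and at Rps26 and Dgka), and 2 of the 5 family genes held a summit inside. Keeping only peaks whose -log10 q reached 5, 6 anti-Eos summits and all 3 anti-Helios summits were left, without the peaks inside Ikzf2 and near Spag16. Leaving out peaks on a background of over 3 control fragments, on the scale at the summit, changed none of the counts. Letting any base of a peak decide membership changed none either. The 3 overlaps also held with summits within 100 bp and with reciprocal overlap of 0.5 of each peak. No paired analysis was possible because each group has 1 library and no test was made. Among the family peaks, those at Ikzf2 and Spag16 rest on the fewest fragments, 12 and 10.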
